A study of Mus musculus with 20 samples.

Results

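The complement genes described here are 9 components and receptors, C1qa, C1qb, C1qc, C3, C4b, Cfb, Cfp, C3ar1 and C5ar1, taken by gene symbol from a table of raw read counts for 33243 genes. All 9 were present in the table and passed the filter on low counts that left 16632 genes to test. The counts come from macrophages of the mouse cranial dura that the study calls dural CNS-associated macrophages (dCAMs), sorted by flow cytometry as CD45int CD11b+ CD206int-high cells and split by tdTomato fluorescence into tdT+ and tdT- libraries. Every mouse was Ccr2creERT2/+ R26tdT/tdT, so that tamoxifen marked cells with an active Ccr2 locus, the gene of the chemokine receptor of monocytes, and their later progeny. A cell that escaped recombination stays tdT-, so the label is a lineage mark of some cells and not a complete one. The study also reports that cells derived from hematopoietic stem cells keep replacing dCAMs in control mice. Cells that arrived after the tamoxifen doses could therefore be tdT- too.

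All mice, controls included, had received the CSF1R inhibitor BLZ945 by mouth at 200 mg/kg for 7 days, which empties the niche of macrophages, and tamoxifen at 2 mg per day on 3 days. After 8 weeks of repopulation they were given lipopolysaccharide (LPS), a bacterial cell wall component, at 2.5 mg/kg, or phosphate-buffered saline (CTL), and the dura was taken 12 h later. There were 10 mice, 5 CTL and 5 LPS, and each gave 1 tdT+ and 1 tdT- library, which makes 20 libraries in 4 groups of 5. No group without BLZ945 is among them.

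Complement is a cascade of plasma and tissue proteins. C1q, assembled from the products of C1qa, C1qb and C1qc, recognises antibody complexes and dying cells and starts the classical pathway, which cleaves C4 (C4b in the mouse) and then C3, the central protein of all pathways. Factor B (Cfb) is the protease subunit of the alternative pathway's convertase, and properdin (Cfp) stabilises that convertase. C3ar1 and C5ar1 are the G protein-coupled receptors of the released fragments C3a and C5a. Tissue macrophages are a main source of C1q, whereas much of the circulating C3 and factor B is made by the liver.

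In the GENCODE M21 annotation of GRCm38 all 9 are protein-coding genes on the minus strand. The C1q genes are neighbours on chromosome 4, with C1qb at chr4:136880129-136886187, C1qc at chr4:136889804-136893065 and C1qa at chr4:136895917-136898803. C4b (chr17:34728380-34743882) and Cfb (chr17:34856374-34862518) lie in one stretch of chromosome 17, and C3 (chr17:57203970-57228136) lies apart on it. C3ar1 is at chr6:122847138-122856161, C5ar1 at chr7:16246743-16259540 and Cfp at chrX:20925454-20931555. Cfb overlaps Gm20547 and Mir6972, and C3 overlaps Mir6978, so reads could be shared with these. C4b has the near copy C4a, which was nearly without counts, and reads that match both could have been lost or split.

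RefSeq promoter windows, from 250 bases before to 50 bases after the start site on GRCm38.p6, were found for 6 of the 9 members (C1qb, C1qc, C3, Cfp, C3ar1 and C5ar1). Those of the neighbours C1qb and C1qc, of C3, and of the receptor pair C3ar1 and C5ar1 are printed because these genes answered LPS differently from one another. Capitals mark matches to any of 6 short motifs searched on both strands. They were GGNNNTTCC (NF-kappaB-like, in 18.5% of the 32851 mouse promoters of this table), GAAANNGAA (ISRE-like, 8.56%), TTCNNNGAA (GAS, 8.3%), TTGCNNAA (C/EBP-like, 10.8%), GAGGAAGT (PU.1-like, 3.2%) and TGCTGAC (MARE-like, 4.67%). All windows are on the minus strand and read 5′ to 3′.
C1qb, chr4:136886151-136886450: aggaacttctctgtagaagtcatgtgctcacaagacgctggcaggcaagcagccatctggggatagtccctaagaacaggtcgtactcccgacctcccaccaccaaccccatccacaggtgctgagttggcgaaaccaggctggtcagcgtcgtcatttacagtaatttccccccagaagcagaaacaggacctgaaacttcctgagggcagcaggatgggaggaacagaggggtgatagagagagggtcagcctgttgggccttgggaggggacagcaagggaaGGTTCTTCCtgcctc
C1qc, chr4:136892865-136893164: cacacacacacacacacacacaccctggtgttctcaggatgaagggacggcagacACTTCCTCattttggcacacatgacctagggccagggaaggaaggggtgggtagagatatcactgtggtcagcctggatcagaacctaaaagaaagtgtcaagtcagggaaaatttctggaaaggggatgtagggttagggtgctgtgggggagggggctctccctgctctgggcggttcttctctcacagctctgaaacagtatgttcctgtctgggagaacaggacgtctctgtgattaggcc
C3, chr17:57228087-57228386: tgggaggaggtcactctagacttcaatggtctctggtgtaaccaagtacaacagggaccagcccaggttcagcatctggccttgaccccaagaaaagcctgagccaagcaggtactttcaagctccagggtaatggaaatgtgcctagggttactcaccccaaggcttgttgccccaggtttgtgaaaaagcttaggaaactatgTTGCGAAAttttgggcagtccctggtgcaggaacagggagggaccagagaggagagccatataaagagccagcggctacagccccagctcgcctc
C3ar1, chr6:122856108-122856407: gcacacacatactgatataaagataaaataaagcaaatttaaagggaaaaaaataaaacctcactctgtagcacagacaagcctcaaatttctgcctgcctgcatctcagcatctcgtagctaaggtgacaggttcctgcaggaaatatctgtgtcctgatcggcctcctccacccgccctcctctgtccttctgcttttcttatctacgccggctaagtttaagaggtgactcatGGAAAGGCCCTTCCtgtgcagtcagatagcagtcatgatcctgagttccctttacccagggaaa
C5ar1, chr7:16259289-16259588: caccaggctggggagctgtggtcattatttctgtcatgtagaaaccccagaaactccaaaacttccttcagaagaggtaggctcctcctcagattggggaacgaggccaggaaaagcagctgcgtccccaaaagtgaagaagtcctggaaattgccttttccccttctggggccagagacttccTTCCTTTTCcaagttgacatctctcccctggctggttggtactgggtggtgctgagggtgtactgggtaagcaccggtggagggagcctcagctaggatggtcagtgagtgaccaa

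The match in C1qb was the NF-kappaB-like motif, in the transcribed part of the window. C1qc held the PU.1-like motif on the opposite strand and C3 the C/EBP-like motif close to its start. C3ar1 held 2 overlapping NF-kappaB-like matches and C5ar1 an ISRE-like match on the opposite strand. The Cfp window (chrX:20931506-20931805) matched none of the 6. A match describes the letters and says nothing of a bound factor.

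The libraries held 6017650 to 18925908 counts. LPS libraries were deeper than most CTL libraries (12073566 to 18925908 against 6017650 to 12208203), and the tdT- CTL libraries had the fewest genes with at least 10 counts (6671 to 9365, against 10024 to 11987 in the other 15). The macrophage markers (10 of 10 present) summed to 6578 to 16276 CPM (counts scaled to a common library total) over all libraries. Other cell types were also represented. Fibroblast markers reached 1068 CPM in the tdT- CTL library of mouse 175 and 4668 CPM in that of mouse 179, against 10.9 to 415 CPM in the other 18. Dendritic cell markers summed to 618 to 3329 CPM in tdT- and 51.2 to 77.1 CPM in tdT+ CTL libraries, and the 8 neutrophil markers to 1.05 to 181 CPM in CTL and 102 to 754 CPM in LPS libraries. In LPS libraries S100a8, with Retnlg in tdT- cells, made up most of that sum, S100a9 was at most 2.18 CPM and Ly6g, a defining marker, at most 1.54 CPM. In sorted bulk libraries fewer cells of a type and less RNA per cell cannot be told apart.

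Genes were compared with edgeR's quasi-likelihood test over all 20 libraries, with Benjamini-Hochberg adjustment over the 16632 genes. A gene was called higher or lower when its adjusted p was under 0.05 and its log2 fold change went past 1 in either direction, and levels are CPM after TMM scaling. Each standard error (SE) is the absolute log2 fold change divided by the square root of the test's F statistic. It is an approximation derived from the test and is unreliable for genes near the floor. LPS against CTL asked how each population answered the challenge. In tdT- dCAMs, 2 of the 9 members rose (C3 and Cfb) and 2 fell (C1qa and C1qc), against a call rate of 11.5% over all genes (7.2% higher and 4.27% lower). In tdT+ dCAMs, 1 rose (Cfb) and 3 fell (C1qa, C1qc and C3ar1), where 5.89% of all genes were called (3.37% higher and 2.52% lower). The median log2 fold change of the members was -0.01 in tdT- and -0.59 in tdT+, beside 0.02 and 0.01 over all genes, a median that hides changes in both directions. CTL and LPS libraries did not overlap for 4 members in tdT- and 6 in tdT+ cells, and 12.6% and 17.8% of all genes shared that feature.

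**Figure D1:**
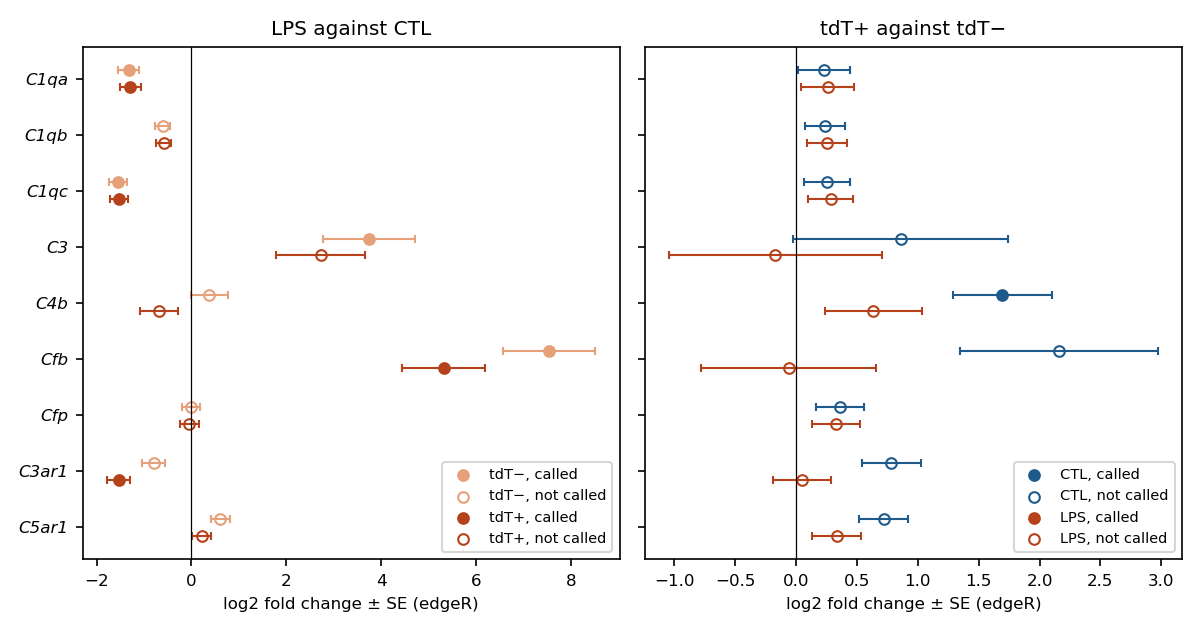
Log2 fold changes for the 9 members, LPS against CTL at the left and tdT+ against tdT- at the right. Bars are the standard error derived from the edgeR F statistic. Filled points passed both thresholds. C1qa and C1qc sit at nearly the same negative values in both populations while C1qb sits nearer 0, and in the right panel C4b in CTL is the one filled point.

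C1q transcripts were the most abundant of the 9 per length, and they split under LPS. C1qa and C1qc fell in both populations, whereas C1qb was lower by a smaller amount that did not reach the fold threshold. C1qa encodes the A chain of C1q. Its level was 2230, 3173, 4378, 4358 and 3642 CPM in the tdT- CTL libraries of mice 174, 175, 177, 178 and 179. In the tdT- LPS libraries of mice 54, 56, 59, 60 and 61 it was 1427, 1298, 1424, 2015 and 957 CPM. All 5 LPS libraries lay under all 5 CTL libraries, although mouse 174 came close to the highest of them. This was a log2 fold change of -1.32 ± 0.22 (SE), or a 2.50-fold lower level (edgeR adjusted p = 0.000276). In tdT+ cells C1qa was at 3543 to 5297 CPM (median 4013) in CTL and 1082 to 2323 CPM (median 1706) in LPS, and fell by 1.29 ± 0.22 on the log2 scale (edgeR adjusted p = 0.000402).

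C1qc, the C chain, showed the largest fall of the 3. In tdT- cells it went from 4855 ± 921 CPM (SD, n = 5) to 1658 ± 414 CPM, a log2 fold change of -1.55 ± 0.19 (edgeR adjusted p = 1.07e-05). In tdT+ cells it went from 5794 ± 938 to 2021 ± 538 CPM, a log2 fold change of -1.52 ± 0.19 (edgeR adjusted p = 1.25e-05). CTL and LPS libraries stood apart in both. C1qb, the B chain, was at 3476, 5949, 7468, 6039 and 6035 CPM in tdT- CTL (mice 174 to 179 as above) and at 3188, 3462, 4207, 4684 and 3515 CPM in tdT- LPS. Here mouse 174 lay among the LPS libraries, so the groups overlapped. The log2 fold change was -0.60 ± 0.16 (edgeR adjusted p = 0.0167), and in tdT+ cells, where the groups did not overlap, it was -0.59 ± 0.16 (edgeR adjusted p = 0.0306). Both pass the adjusted p and miss the fold threshold. The summed level of the 10 macrophage markers was lower with LPS in tdT+ cells (14568 to 16276 CPM in CTL, 8483 to 10543 CPM in LPS), and overlapped between treatments in tdT- cells (6578 to 12938 and 7313 to 8225 CPM). The markers did not move as one: in tdT+ cells Csf1r was at 5656 to 6283 CPM in CTL and 1056 to 1623 CPM in LPS, while Itgam was at 159 to 234 and 975 to 1187 CPM and Fcgr1 at 171 to 450 and 520 to 838 CPM. Their part in the C1q values was not tested.

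**Figure D2:**
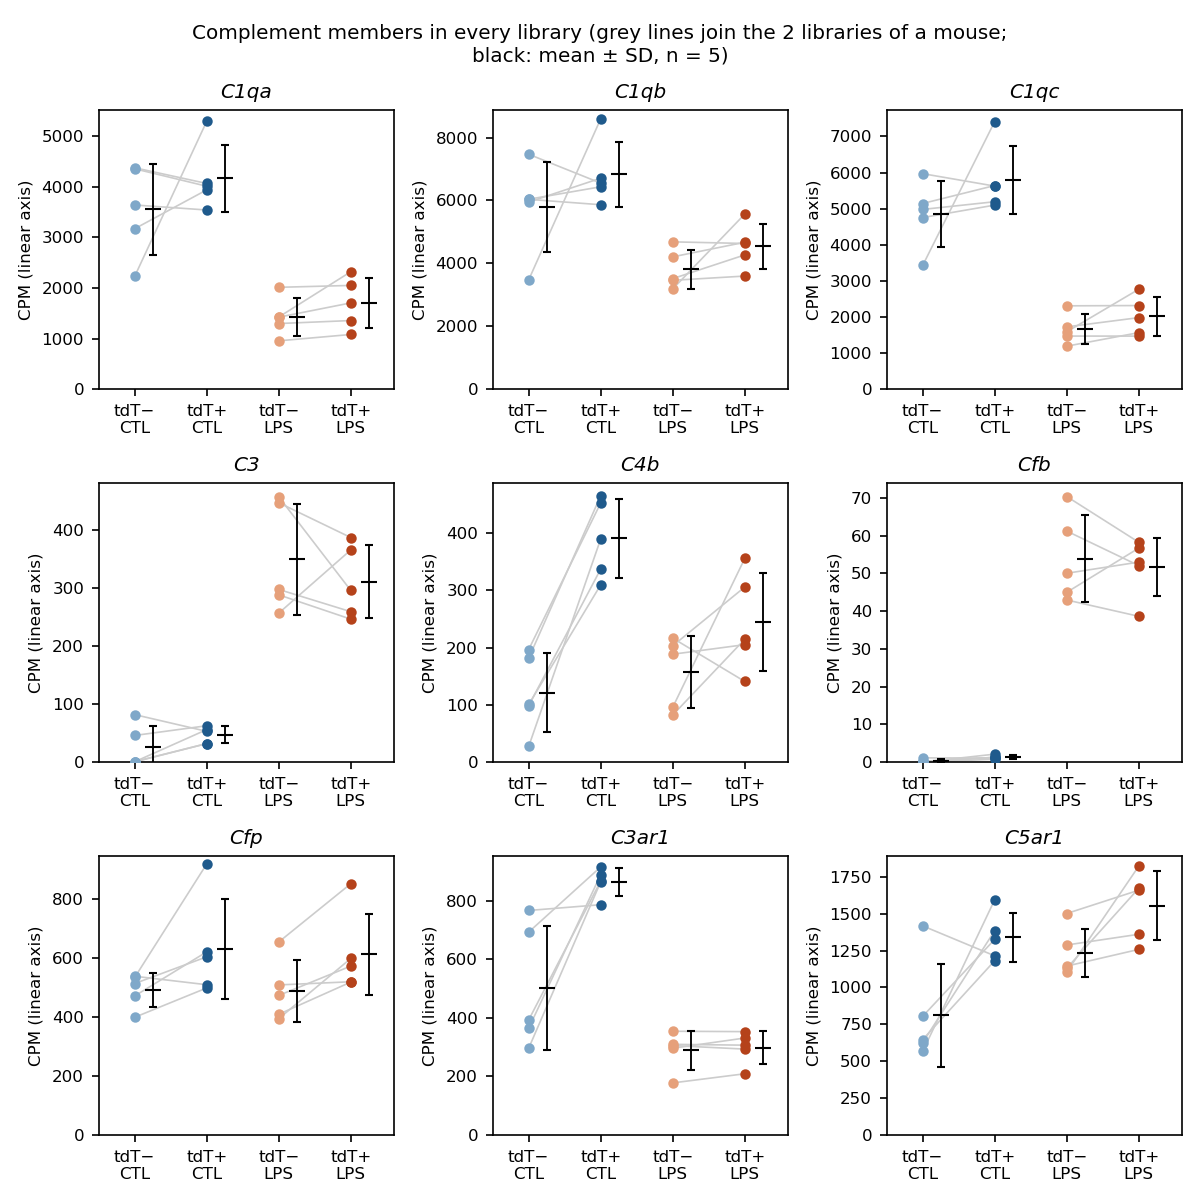
CPM of each member (linear axis from 0) in the 20 libraries, grouped by population and treatment, with grey lines joining the libraries of 1 mouse and black marks for the mean ± SD of 5. Cfb goes from at most 2.11 CPM in CTL to 38.6 to 70.4 CPM in LPS, and C1qa and C1qc drop clear of their CTL libraries.

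The share of each chain in the summed count of the 3 genes does not depend on library scaling, and it shifted towards C1qb. In tdT- CTL libraries C1qb made up 38.1, 41.7, 41.9, 39.3 and 41.8% of the sum, and in tdT- LPS libraries 51.4, 55.6, 57.2, 52.0 and 62.1%. In tdT+ cells the share was 40.3 to 41.2% in CTL and 51.5 to 61.7% in LPS. No LPS library reached down to a CTL library in either population. The means differed by 15.1 percentage points in tdT- and 14.8 in tdT+ cells (two-sided exact permutation test over mice, p = 0.00794 in each, the smallest value 5 against 5 mice can give, adjusted p = 0.00953 over 6 tests). C1qc lost the most, falling from 34.5 ± 2.21% to 23.9 ± 1.90% (SD, n = 5) in tdT- and from 34.5 ± 0.75% to 24.2 ± 1.57% in tdT+ libraries (exact permutation adjusted p = 0.00953 in both). The share of C1qa fell by 4.48 points in each population (exact permutation adjusted p = 0.0238 in tdT- and 0.00953 in tdT+).

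Both libraries of an LPS mouse had much the same C1qb share. In mouse 61, which had the highest, it was 62.1% in tdT- and 61.7% in tdT+ cells. The difference between the libraries of a mouse was at most 1.31 points under LPS, while the 5 mice spanned 51.4 to 62.1% in tdT- cells. In CTL mice that difference was 0.529 to 2.29 points, where the mice spanned only 38.1 to 41.9% in tdT- and 40.3 to 41.2% in tdT+ cells. The 3 genes together took 0.905 to 2.18% of all counts in CTL libraries and 0.535 to 1.04% in LPS libraries, so these ranges met only in mouse 174, whose tdT- CTL library was at 0.905%.

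**Figure D3:**
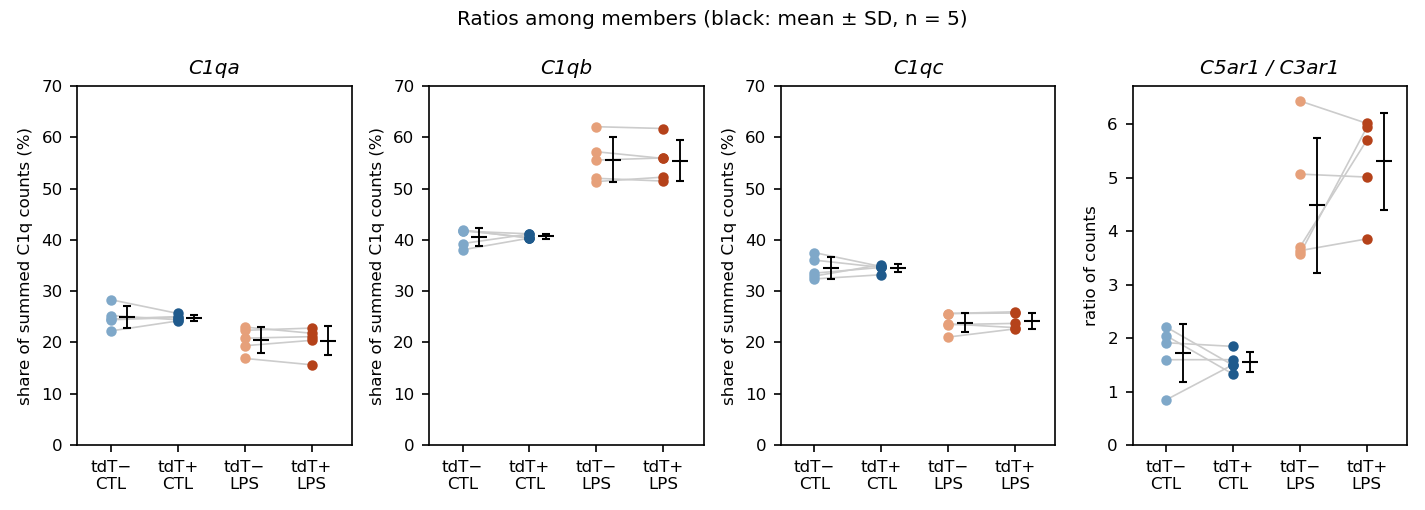
The first 3 panels give the percent of the summed C1qa, C1qb and C1qc counts from each gene, and the last gives the ratio of C5ar1 to C3ar1 counts, per library, with grey lines joining the libraries of a mouse and black marks for the mean ± SD of 5. The C1qb share sits between 38.1 and 41.9% in CTL and between 51.4 and 62.1% in LPS, in tdT- and tdT+ cells alike.

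C3 and Cfb, the substrate and the protease of the alternative pathway, were low in CTL cells and high under LPS. C3 in tdT- CTL was at 0.61, 45.9, 0.86, 0.45 and 81.8 CPM in mice 174, 175, 177, 178 and 179, which are 4, 418, 7, 4 and 625 counts. In tdT- LPS it was at 457, 256, 297, 447 and 288 CPM in mice 54, 56, 59, 60 and 61. The LPS libraries lay above all CTL libraries, and the CTL libraries were of 2 kinds, with 3 near the floor and 2 well above it. The log2 fold change was 3.75 ± 0.97 (edgeR adjusted p = 0.0134). The 2 tdT- CTL libraries with C3 well above the floor, mice 175 and 179, also had the highest fibroblast markers (1068 and 4668 CPM). In the tdT- CTL libraries of mice 174, 177 and 178, with C3 near the floor, these markers summed to 10.9, 315 and 188 CPM. All tdT+ CTL libraries held C3, at 31.8 to 62.6 CPM, with fibroblast sums of 141 to 365 CPM. The part of fibroblast mRNA in the C3 values was not tested. The log2 fold change against the other 3 tdT- CTL libraries alone was 9.07, a description only, since leaving out mice 175 and 179 takes out the high C3 values themselves.

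In tdT+ cells C3 was at 56.0, 62.6, 31.8, 32.0 and 53.0 CPM in CTL and at 296, 365, 259, 387 and 246 CPM in LPS, with no overlap. The log2 fold change of 2.72 ± 0.93 did not pass in the fit of all 20 libraries (edgeR adjusted p = 0.0959), where the spread of C3 is shared with the uneven tdT- CTL group. The value passed when only the 10 tdT+ libraries were fitted (2.72, edgeR adjusted p = 6.07e-06), with the mouse as a block in limma-voom (2.71, adjusted p = 0.00522) and in DESeq2 (2.68, adjusted p = 0.0279). C3 was not called in tdT+ cells with RLE factors, other count filters, the title letter as a covariate or thinned libraries. It was also not called without any 1 mouse, and its edgeR adjusted p reached 0.181 among the alternatives. The neutrophil marker sum was higher in tdT+ LPS libraries too (102 to 469 against 1.05 to 31.2 CPM). Nearly all of it in LPS was S100a8, at most 9.20 CPM in CTL and up to 465 CPM in LPS. Camp was also higher in LPS (0.908 to 2.99 against at most 0.162 CPM), whereas S100a9 was at most 14.6 CPM in CTL and 0.604 CPM in LPS, and Ly6g at most 0.156 CPM in LPS. The part of these in the C3 and Cfb values was not tested.

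**Figure D4:**
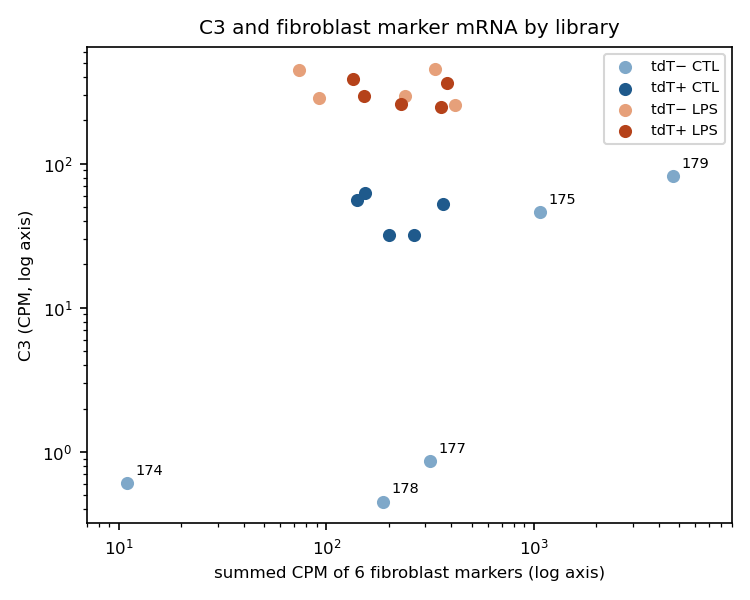
C3 against the summed CPM of 6 fibroblast markers in the 20 libraries, both on log axes, coloured by group, with mouse numbers at the tdT- CTL libraries. Mice 175 and 179 lie far to the right at 45.9 and 81.8 CPM of C3, the other 3 tdT- CTL libraries lie under 1 CPM, and the 10 LPS libraries lie between 246 and 457 CPM.

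Cfb rose in both populations and by the largest factor of the 9. It had 0, 2, 0, 10 and 0 counts in the tdT- CTL libraries of mice 174, 175, 177, 178 and 179, where a count of 0 allows up to 3 counts (0.455, 0.368 and 0.393 CPM in mice 174, 177 and 179, counting error only). In tdT- LPS libraries it had 713, 820, 699, 858 and 553 counts, or 50.03, 61.2, 43.0, 70.4 and 45.0 CPM. Its log2 fold change was 7.54 ± 0.98 (edgeR adjusted p = 1.94e-05), and its size rests on few counts, since it was 9.55 without mouse 178. In tdT+ CTL libraries Cfb had 10 to 13 counts in each of the 5 mice. It reached 38.6 to 58.2 CPM in tdT+ LPS, a log2 fold change of 5.32 ± 0.87 (edgeR adjusted p = 0.000286). The LPS levels of both populations lay in the same range.

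Cfp, encoding properdin, differed little with LPS. It was at 491 ± 57.9 CPM in CTL and 487 ± 104 CPM in LPS tdT- cells (SD, n = 5), or -0.01 ± 0.20 on the log2 scale (edgeR adjusted p = 1). In tdT+ cells it was at 630 ± 170 and 611 ± 138 CPM, with a log2 fold change of -0.04 ± 0.20 (edgeR adjusted p = 0.984). C4b, the mouse C4 of the classical pathway, overlapped between CTL and LPS in both populations. Its log2 fold changes were 0.38 ± 0.40 in tdT- (edgeR adjusted p = 0.558) and -0.68 ± 0.40 in tdT+ cells (edgeR adjusted p = 0.382), of opposite sign.

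The anaphylatoxin receptors parted under LPS. C3ar1 was at 864, 915, 867, 889 and 786 CPM in tdT+ CTL and at 307, 209, 331, 353 and 293 CPM in tdT+ LPS. The groups were far apart, and C3ar1 fell by 1.53 ± 0.25 on the log2 scale (edgeR adjusted p = 0.000229). In tdT- cells it was at 296, 693, 393, 364 and 766 CPM in CTL and at 309, 178, 296, 354 and 305 CPM in LPS, so the groups overlapped and the log2 fold change of -0.80 ± 0.24 passed the adjusted p but not the fold threshold (edgeR adjusted p = 0.0332). C5ar1 was at 1181 to 1594 CPM in tdT+ CTL and 1258 to 1822 CPM in tdT+ LPS (log2 fold change 0.21 ± 0.20, edgeR adjusted p = 0.668). In tdT- cells it was at 567 to 1417 CPM (median 647) and 1105 to 1501 CPM (median 1145), with a log2 fold change of 0.60 ± 0.20 (edgeR adjusted p = 0.053).

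The ratio of C5ar1 to C3ar1 counts, a description chosen after the values were seen, put both together. It was 0.84 to 2.21 in tdT- CTL and 1.33 to 1.84 in tdT+ CTL libraries. Under LPS it was 3.57 to 6.44 in tdT- and 3.86 to 6.02 in tdT+ libraries. No CTL library reached an LPS library.

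The comparison of tdT+ with tdT- cells asked whether cells with the Ccr2 lineage mark differ from those without it in the same mouse. In CTL mice 1 of the 9 members was called, C4b, higher in tdT+ cells, where 4.28% of all genes were called (3.01% higher and 1.27% lower). C4b was at 390, 310, 465, 453 and 337 CPM in tdT+ and at 27.3, 101, 182, 197 and 98.5 CPM in tdT- libraries of mice 174, 175, 177, 178 and 179. It was higher in the tdT+ library of all 5 mice, by 2.30 to 14.3 times. That is a log2 fold change of 1.69 ± 0.41 (edgeR adjusted p = 0.0178), and it did not pass when only the 10 CTL libraries were fitted (edgeR adjusted p = 0.212). Dendritic cell markers summed to 3329, 618, 1230, 1124 and 793 CPM in these tdT- CTL libraries, in the same order of mice. In tdT+ CTL they summed to 51.2 to 77.1 CPM. The sum was highest in mouse 174, where C4b was lowest. Among the other mice it was higher in 177 and 178, which had more C4b, than in 175 and 179. Cd209a was at 315 to 2774 CPM in tdT- and 25.5 to 65.1 CPM in tdT+ CTL. Flt3, Zbtb46 and Ccr7 overlapped, Clec9a was at 0 and at most 3.04 CPM, and Xcr1 at 0 in both. The part of these markers in the C4b value was not tested.

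The receptors and C3 leaned the same way in CTL mice without being called. C3ar1 was higher in the tdT+ library of 5 of 5 mice, by 1.03 to 2.92 times (log2 fold change 0.78 ± 0.24, edgeR adjusted p = 0.0689), and C5ar1 in 4 of 5 (0.72 ± 0.20, edgeR adjusted p = 0.0419, under the fold threshold). With mouse terms in edgeR, C3ar1 was at 0.89 (adjusted p = 0.0412) and C5ar1 at 0.81 (adjusted p = 0.0506), both under the fold threshold. Among all genes 9.46% had the same sign in all 5 mice. For C3 the log2 fold change was 0.86 ± 0.88 (edgeR adjusted p = 0.622). Without the tdT- CTL libraries of mice 175 and 179 it was 6.18, and C3, C4b, C3ar1 and C5ar1 met both thresholds. Those libraries held the highest C3 and C3ar1 of their group, so leaving them out selects on the values compared and only describes the other 3 mice. Cfb had a log2 fold change of 2.16 ± 0.81 (edgeR adjusted p = 0.126), on at most 13 counts per library. With the mouse as a block in limma-voom, C4b and Cfb were both called (3.08 for Cfb, adjusted p = 0.0129), and with mouse terms in edgeR C4b alone (3.33 for Cfb, adjusted p = 0.106). The C1q genes differed by 0.23 to 0.26 (edgeR adjusted p = 0.412 to 0.577) and Cfp by 0.36 ± 0.20 (edgeR adjusted p = 0.279). Macrophage markers summed to 6578 to 12938 CPM in tdT- CTL and 14568 to 16276 CPM in tdT+ CTL libraries. Csf1r was at 1796 to 3799 and 5656 to 6283 CPM, while the ranges of every other marker of that list overlapped. The part of these markers in the C4b, C3 and receptor values was not tested.

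Under LPS 0 of the 9 members were called between tdT+ and tdT- cells (edgeR), 0 had an unadjusted p under 0.05 and DESeq2 called 0. Of all genes 0.0301% were called. The member furthest from 0 was C4b, with a log2 fold change of 0.64 ± 0.40 (edgeR adjusted p = 1) and a higher level in the tdT+ library of 4 of 5 mice. C1qa, Cfp and C5ar1 were higher in the tdT+ library of 5 of 5 mice, by 1.02 to 1.63, 1.02 to 1.52 and 1.06 to 1.65 times, a pattern that 9.9% of all genes showed in one direction or the other. C3 and Cfb were higher in the tdT+ library of 1 and 2 of 5 mice.

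The difference of the LPS effects between populations was tested directly. Of the 9 members 0 were called in edgeR, 1 had an unadjusted p under 0.05 and DESeq2 called 1, Cfb (-2.19, adjusted p = 0.0106). Of all genes 1.26% were called (0.0902% higher and 1.17% lower). The C1q differences were 0.03 ± 0.30 for C1qa, 0.02 ± 0.23 for C1qb and 0.03 ± 0.26 for C1qc (edgeR adjusted p = 1 for each). C3ar1 differed by -0.73 ± 0.34 (edgeR adjusted p = 0.357), so its call in tdT+ and not in tdT- cells is not shown to be a difference between them. Cfb differed by -2.22 ± 1.07 (edgeR adjusted p = 0.384), and in limma-voom with the mouse as a block by -3.11 (adjusted p = 0.0499), whereas with mouse terms in edgeR no member was called (-3.38 for Cfb, adjusted p = 0.343). Without the tdT- CTL libraries of mice 175 and 179 the values were -6.35 for C3 and -1.25 for C3ar1, which again follow from leaving out the highest C3 and C3ar1 values of that group and are no test of a difference.

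Levels of different genes were compared per kilobase of exon. In tdT+ CTL cells the order was C1qb (6278 CPM per kb), C1qa (4012), C1qc (3001), C5ar1 (521), Cfp (363), C3ar1 (201), C4b (68.7), C3 (9.15) and Cfb (0.458). The libraries of C1qa and C1qc overlapped, as did those of C5ar1 and Cfp, and the other neighbours in this order did not. Under LPS the same cells had C3 at 60.4 CPM per kb, with libraries overlapping those of C3ar1 (69.4) above it and of C4b (42.9) below it. Cfb stayed last at 18.3 CPM per kb.

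Among the 20 libraries C1qa and C1qc had the most alike patterns of the members. Likeness was the root mean square difference of the centred log2 CPM, over genes whose log2 CPM averaged 4 or more. Each of C1qa and C1qc was the other's nearest gene (0.17), and the next nearest were Ms4a7 to C1qa (0.28) and Nrros to C1qc (0.27). C1qb was the 38th nearest to C1qa and the 103rd nearest to C1qc. The genes nearest to C1qb were Akr1a1 (0.24) and Gnai2 (0.25). For Cfp they were Ctbp1 and Lgmn (0.25 and 0.28), for C5ar1 App and Grn (0.28 and 0.29) and for C3ar1 Cmtm6 and Sirpa (both 0.39). C3 and C4b had no close match, at 0.84 (Crispld2) and 0.61 (St6galnac4).

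A wider list of 53 complement genes placed the 9 in the rest of the system. Of these 52 were in the table and 33 were tested, the other 19 having too few counts. In tdT- cells LPS called 4 of the 33, 2 higher (Itgam and Itgb2) and 2 lower (Fcna among them), and in tdT+ cells 2, with Itgam rising and C5ar2 falling. The call rates over all genes were 11.5% and 5.89%. The median log2 fold change of the 33 was 0.02 in tdT- and 0.39 in tdT+ cells. These medians include genes near the floor, such as Masp2, Cpn1, Cd59b, C4a and Vsig4, which averaged 0.054 to 0.12 CPM. The standard errors of these genes with LPS in tdT+ cells were 1.45 to 2.09, so no shift of the system is read from the medians. Between tdT+ and tdT- cells 0 of the 33 were called in CTL (5 with an unadjusted p under 0.05 and 2 called by DESeq2, C1s1 and Vtn), 0 under LPS (2 unadjusted and 0 in DESeq2) and 0 for the difference of the LPS effects (6 unadjusted and 2 in DESeq2, again C1s1 and Vtn). C1s1 was at 0 in all tdT- CTL libraries. In tdT+ CTL its mean of 2.79 CPM (SD 6.24) was set by its highest library, at 13.95 CPM. Vtn was at 0 to 0.491 CPM in tdT- CTL and 0 to 13.95 CPM in tdT+ CTL (mean 5.01, SD 6.85). The DESeq2 calls of both genes therefore rest on low and uneven levels.

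Itgam and Itgb2 encode the chains of complement receptor 3, which binds fragments of C3. Itgam, also the CD11b of the sorting gate and one of the macrophage markers, went from 148 ± 48.6 to 942 ± 103 CPM in tdT- and from 190 ± 30.1 to 1062 ± 88.0 CPM in tdT+ cells (SD, n = 5). It was above all CTL libraries in every LPS library, with a log2 fold change of 2.67 ± 0.20 in tdT- (edgeR adjusted p = 1.41e-08) and 2.48 ± 0.20 in tdT+ cells (edgeR adjusted p = 2.74e-08). Itgb2 rose by 1.11 ± 0.27 in tdT- (edgeR adjusted p = 0.00941) and had 0.61 ± 0.27 in tdT+ cells (edgeR adjusted p = 0.214). Its tdT- groups overlapped (111 to 583 CPM in CTL, 490 to 886 CPM in LPS), while its tdT+ groups did not (376 to 455 and 575 to 661 CPM). The tdT- call was lost with only the 10 libraries compared (edgeR adjusted p = 0.101). Without mouse 178 the log2 fold change was 0.94, under the fold threshold. Neutrophils express both genes. Their marker sum in LPS libraries was 179 to 754 CPM in tdT- and 102 to 469 CPM in tdT+ cells, nearly all S100a8 in tdT+ cells (up to 465 CPM), and mostly S100a8 (up to 625 CPM) and Retnlg (23.2 to 642 CPM) in tdT- cells. Cxcr2 reached 0.113 CPM in tdT- CTL and 7.65 CPM in tdT- LPS cells. Other markers had their highest tdT- value in CTL: S100a9 reached 15.1 CPM in CTL and 2.18 CPM in LPS, Camp 27.1 and 3.58 CPM, and Ngp 20.3 and 1.27 CPM. The part of these in the Itgam values was not tested.

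Fcna, a ficolin that starts the lectin pathway, had a log2 fold change with LPS of -2.53 ± 0.80 in tdT- cells (edgeR adjusted p = 0.0411), with its CTL range of 7.25 to 144 CPM set by mouse 179. Without mouse 179 it was -1.69 (edgeR adjusted p = 0.127), and the call was lost without any 1 of 6 of the 10 mice (178, 179, 54, 56, 60 and 61), with adjusted p of 0.0553 to 0.127. C5ar2, the second C5a receptor, was at 13.6 to 60.5 CPM in tdT+ CTL and 2.81 to 10.02 CPM in tdT+ LPS (-2.58 ± 0.77, edgeR adjusted p = 0.048). Its call was lost without any 1 of 8 of the 10 mice, with adjusted p of 0.0585 to 0.151.

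The other wider genes with a mean of at least 50 CPM were not called. Calr (calreticulin, a C1q partner at the cell surface) had a log2 fold change of 0.94 ± 0.23 with LPS in tdT- cells (edgeR adjusted p = 0.0077), just under the fold threshold, and 0.48 ± 0.23 in tdT+ cells. Serping1, the C1 inhibitor, ranged from 0 to 283 CPM in tdT- CTL libraries, at 0 in mouse 174 and highest in mouse 179. Cr1l, a membrane inhibitor of the convertases, had -0.05 ± 0.46 in tdT- and -0.31 ± 0.46 in tdT+ cells with LPS, Lrp1 0.42 ± 0.27 and -0.05 ± 0.27, Cd93 0.05 ± 0.37 and 0.27 ± 0.37, and C1qbp 0.02 ± 0.39 and 0.39 ± 0.39.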

How the data were processed

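SMART-Seq libraries of sorted dCAMs were sequenced by the authors, aligned with STAR 2.7.11a and counted per gene with featureCounts (2.0.6 in the processing notes), and the table was deposited as raw read counts, with no normalization. The kit amplifies RNA by PCR and has no molecular identifiers. The strand setting is not given in the sources used here, and the build and annotation are named in differing ways, so coordinates and exon lengths are from GENCODE M21 (GRCm38), matched by symbol. Genes with a total of at least 10 counts over 20 libraries were tested with edgeR 4.0.16 (R 4.3.3; TMM, 4 groups, no covariates). limma 3.58.1 and DESeq2 1.42.0 were alternatives, and the scripts were tested on simulated data. Libraries of 1 mouse are paired by animal. Their deviations from the group means correlated at 0.000914 to 0.119 over genes, so the main fit had no block, and the fit with the mouse as a block is given where it changes a call. C1q shares were compared by exact permutation over mice. Floors cover counting error only. Values after ± are the SD over mice or the SE derived from the edgeR test, and are not limited to counting error.

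The members, lists and motifs were chosen with earlier results of these data known. Named genes are the 9 members, the wider complement genes called in any comparison or averaging 50 CPM or more, and the 2 genes nearest each member. A result for 1 gene of the wider list is not reported here. No column of the table was left unused.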

Additional observations from a re-analysis of the deposited data

Results flagged for a closer look

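In groups of 5, a library was marked where its gap to the nearest of the others, divided by the group's range, passed 0.71. Of 48 groups examined (9 members and 3 C1q shares in 4 groups), 5 held such a library, and chance marks about 1 in 20. C1qc was highest in the tdT+ CTL library of mouse 174, at 7413 CPM. Cfb was lowest in the tdT+ LPS library of mouse 59, at 38.6 CPM. Cfp was highest in the tdT+ LPS library of mouse 54, at 851 CPM. C3ar1 was lowest in the tdT- LPS library of mouse 56, at 178 CPM. The C1qc share was lowest in the tdT+ CTL library of mouse 178, at 33.2%.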

How the results depend on the processing

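C1qa, C1qc and Cfb kept their calls with LPS in both populations, and C3ar1 in tdT+ cells, under every alternative run. The member count there was 3 to 4 in tdT- and 4 to 5 in tdT+ cells, and 0 throughout between populations under LPS. C3 in tdT- cells was not called with only the 10 libraries compared (3.75, edgeR adjusted p = 0.12). Between populations in CTL the 1 member called became 0 with only the 10 libraries compared or with limma-voom quality weights, 2 with limma-voom and the mouse as a block, in DESeq2 or with libraries thinned to 6017650 counts, 4 without the tdT- CTL libraries of mice 175 and 179, and 1 to 2 leaving out 1 mouse (2 without mouse 175, 178 or 179). For the difference of the LPS effects, 0 became 1 with the voom block and in DESeq2, 2 without those libraries and 0 to 1 leaving out 1 mouse (1 without mouse 178). Of the wider list, the 4 with LPS in tdT- cells became 1 with the 10 libraries and 7 with the voom block and in DESeq2. The 2 in tdT+ cells became 1 with no filter, with the title letter as a covariate and after thinning, 6 with the 10 libraries, 7 with quality weights and 1 to 2 leaving out 1 mouse. The 0 in CTL became 1 with the voom block and without the tdT- CTL libraries of mice 174 and 179, 2 in DESeq2 and without those of mice 175 and 179, and 0 to 1 leaving out 1 mouse. The 0 for the difference became 1 without those of mice 175 and 179, 2 in DESeq2 and 0 to 1 leaving out 1 mouse. The C1q shares kept direction and call without any 1 mouse.

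Sign changes concerned values near 0 that were called in no fit. Leaving out 1 mouse, log2 fold changes ran from -0.076 to 0.062 (Cfp, LPS in tdT-), -0.19 to 0.11 (Cfp, LPS in tdT+) and -0.15 to 0.0087 (Cfb between populations under LPS), and differences of the LPS effects from -0.18 to 0.25 (C1qa), -0.18 to 0.25 (C1qb), -0.19 to 0.23 (C1qc) and -0.17 to 0.11 (Cfp). Cfp with LPS was 0.014 in tdT- cells with the title letter, and 0.066 (voom block) and 0.028 (quality weights) in tdT+ cells. C1qa in CTL was -0.0026 with the voom block. C4b with LPS in tdT- cells was -0.034 without the libraries of mice 174 and 179. The differences were -0.0033 (C1qa) and -0.011 (C1qb) with RLE factors and in DESeq2, -0.0067 and -0.0065 with mouse terms in edgeR, -0.016 (C1qb) and 0.074 (Cfp) without mice 175 and 179, and for Cfp 0.0053 without mice 174 and 179, 0.094 with the voom block and 0.046 with quality weights. The cause of these changes was not tested.

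Over all genes, the calls ranged over 891 to 4523 (1907 in the main comparison) for LPS in tdT-, 694 to 3155 (979) in tdT+, 7 to 2245 (712) between populations in CTL, 1 to 137 (5) under LPS and 63 to 1102 (209) for the difference. RLE factors moved the median log2 fold change by -0.035 to 0.029, and the limma-voom fits by up to 0.72 where tdT- CTL libraries entered. The blocked fits changed no member's call other than those given with the results. Leaving out the libraries of mice 174 and 179 or of 175 and 179 was chosen after seeing the data. The libraries of mice 175 and 179 held the highest C3 and C3ar1 of the tdT- CTL group, so the counts without them select on the values compared. Coding lengths were not run for the levels per length. At the depth of tdT- CTL libraries, C3 had 4 to 7 counts in 3 of 5 mice and Cfb 0 to 2 counts in 4 of 5, which limits any fold change against them.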
